A study of Mus musculus with 4 samples.

Results

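Nkd1 and Fgfr2 are 2 mouse genes at which RNA polymerase II in the uterus was listed over a longer stretch at postnatal day 12 (PD12) than in the adult. Their intervals were gathered from 4 deposited lists by position, within a window on chromosome 8, 91030000 to 91140000, for Nkd1 and a window on chromosome 7, 137290000 to 137420000, for Fgfr2. The genes were selected on the POL2-covered length at the 2 stages, so their POL2 values are given as a description and support nothing. The windows held 17 of 35977 intervals, 4 at Nkd1 and 13 at Fgfr2, and all 17 are described. The lists come from chromatin immunoprecipitation and sequencing (ChIP-seq) of whole uterus. The adult libraries are labelled with days 2.5 and 3.5 of pseudopregnancy, the hormonal state after a sterile mating, and the other stage is PD12, when glands are forming. At each stage 1 library was made with an antibody to FOXA2, a forkhead transcription factor of the gland epithelium, and 1 with an antibody to the serine 2-phosphorylated C-terminal repeat of RNA polymerase II (POL2), the form that travels along gene bodies. For strain, genotype, the number of animals pooled and the way both adult days were combined, nothing is given in the sources used here.

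Nkd1 encodes naked cuticle homolog 1, a cytoplasmic protein that binds Dishevelled and dampens Wnt signalling, and it is itself switched on by Wnt and beta-catenin in many tissues, which makes it part of a negative feedback loop. Fgfr2 encodes a receptor tyrosine kinase for fibroblast growth factors, and its epithelial splice form receives ligands made by the neighbouring mesenchyme. Wnt and fibroblast growth factor signals both pass between stroma and epithelium while the glands of the neonatal uterus form. FOXA2 is the factor that marks those glands and is needed for them. Phosphorylation of serine 2 builds up as polymerase moves away from the promoter, so its ChIP signal usually covers the transcribed part of a gene and the region just past its end.

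With 1 library for each antibody and stage there were no replicates, so the values below have no error and no p-value is given. The POL2 lists held 14818 intervals in the adult and 9972 at PD12, with median widths of 4800 and 5400 bp, and are called domains here because of that width. They covered 95.2 Mb in the adult and 70.4 Mb at PD12, so the adult list was the longer one by 1.35-fold. The FOXA2 lists held 10373 intervals in the adult (median 685 bp) and 814 at PD12 (median 318.5 bp). The lists give the start and end of each interval and no height or read count, so depth is unknown and a missing interval means only that none was listed. In whole uterus, fewer cells of a type and less polymerase or FOXA2 per cell cannot be told apart. Positions are those of the files, which the windows take as mm9. The files name no build, and no annotation of that build was used, so the gene names rest on the windows and no exon or intron is stated.

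The RefSeq promoters of both genes are shown as the places where RefSeq puts a transcript start of each gene. Each holds 300 bases on the gene's own strand, 250 before the transcript start in lower case and 50 from the start onward in capitals. The build of these sequences is GRCm38.p6, whose positions cannot be set beside those of the interval lists. The Nkd1 entry lies at chr8:88527383-88527682 on the plus strand, and its start is 6.29 kb inside the outermost 5′ end of the gene in the same annotation. The Fgfr2 entry lies at chr7:130266759-130267058 on the minus strand and starts at the outermost 5′ end of the gene.
Nkd1: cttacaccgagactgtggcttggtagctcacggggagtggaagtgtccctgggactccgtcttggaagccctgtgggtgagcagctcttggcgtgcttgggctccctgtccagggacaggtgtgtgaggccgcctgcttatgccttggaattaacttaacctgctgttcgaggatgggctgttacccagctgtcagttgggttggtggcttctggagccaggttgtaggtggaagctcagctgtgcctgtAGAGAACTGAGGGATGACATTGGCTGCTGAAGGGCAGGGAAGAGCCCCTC
Fgfr2: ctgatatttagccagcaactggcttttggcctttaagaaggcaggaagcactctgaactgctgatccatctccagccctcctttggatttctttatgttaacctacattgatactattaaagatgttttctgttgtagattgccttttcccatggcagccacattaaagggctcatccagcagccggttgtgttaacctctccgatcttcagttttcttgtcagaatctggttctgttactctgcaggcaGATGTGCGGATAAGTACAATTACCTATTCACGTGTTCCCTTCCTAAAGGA

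The promoter of Nkd1 had a GC content of 58.3% with 6 CpG dinucleotides, and that of Fgfr2 had 43.7% with 4. The medians over 32851 mouse promoters of this length were 52.7% and 7. Forkhead cores (TGTTTAC or TGTTTGC) and the cores of TCF/LEF (CTTTGAT or CTTTGAA), the factors through which beta-catenin acts, were searched on both strands. Neither promoter held any of them, the usual case, since 8.48% of all promoters held a forkhead core and 8.65% a TCF/LEF core. This says only that these letters are not within these 300 bases. The Nkd1 sequence is that of the internal start given above, and the outermost 5′ end of that gene was not searched.

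At Nkd1, POL2 covered 7.4 kb in the adult and 85.6 kb at PD12, an adult to PD12 ratio of 0.0864 (log2 ratio −3.53). The adult list held a single domain at 91116600 to 91123999. The PD12 list also held a single domain, at 91043600 to 91129199, which was the widest but 1 of all 9972 PD12 domains and filled 77.8% of the window. The adult domain was of ordinary size, with 27.5% of the adult list wider than it. It lay wholly inside the PD12 domain, so 78.2 kb were listed at PD12 alone and 0 kb in the adult alone.

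At Fgfr2, POL2 covered 27 kb in the adult and 101.6 kb at PD12, a ratio of 0.266 (log2 ratio −1.91). The adult list held 4 domains, separated by gaps of 14.4, 19.2 and 15.2 kb. Their positions were 137299800 to 137312399 (12.6 kb), 137326800 to 137329599 (2.8 kb), 137348800 to 137349999 (1.2 kb) and 137365200 to 137375599 (10.4 kb). The PD12 list held 6 domains in a nearly unbroken chain over 108.6 kb, at 137297800 to 137406399. Of the 5 gaps between them, 4 measured 0.8 kb and 1 measured 3.8 kb. The widest PD12 domain, 137344600 to 137390399, was 45.8 kb long and stood at rank 32 of its list, and the other 5 ranged from 7.4 to 16.2 kb. All 4 adult domains lay inside PD12 domains, so 74.6 kb were listed at PD12 alone and 0 kb in the adult alone. Over the series, 53.2% of the adult POL2 bases lay inside PD12 domains, against 100% at both genes. Because the genes were chosen for their long PD12 cover, the choice itself favours this and nothing is read from it.

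**Figure D1:**
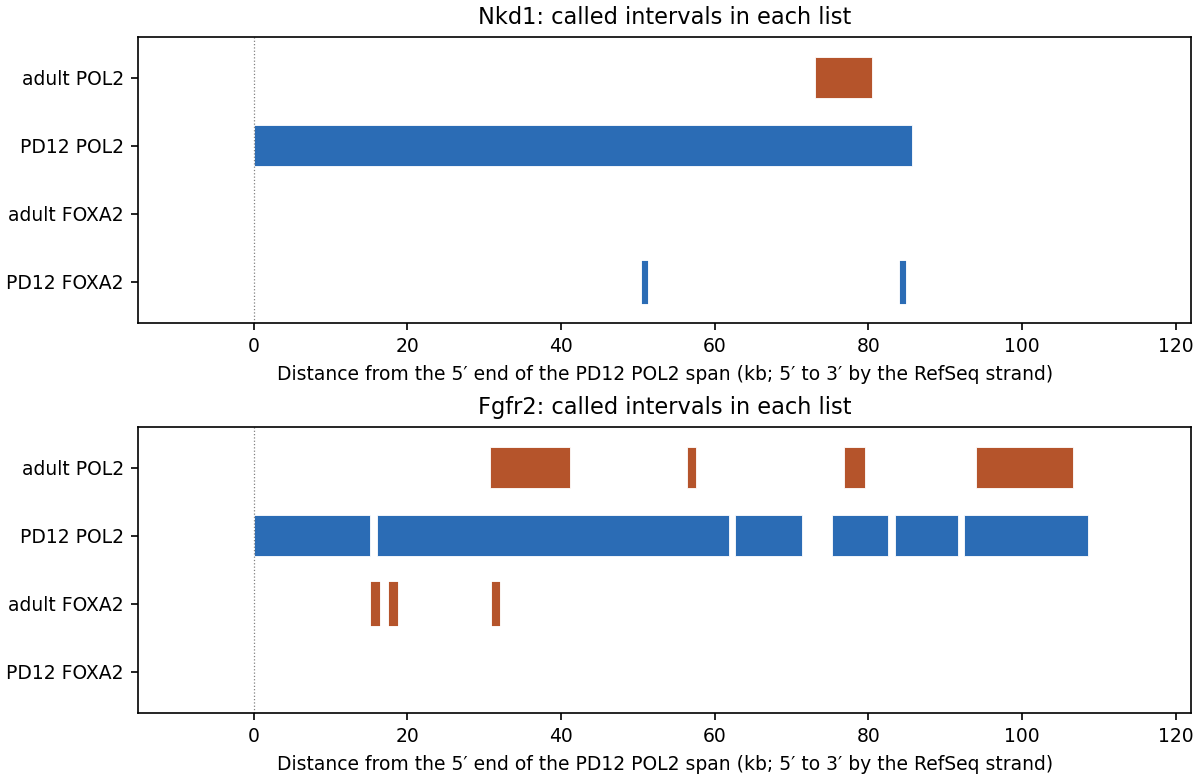
Intervals listed at Nkd1 (top) and Fgfr2 (bottom), with 1 row for each stage and antibody and the distance in kb from the 5′ end of the PD12 POL2 span along the x axis, read 5′ to 3′ by the RefSeq strand. POL2 bars are to scale, while FOXA2 marks carry an outline and look wider than their 302 to 792 bp. The adult POL2 bars of both genes sit within the PD12 ones, and FOXA2 marks appear at PD12 for Nkd1 and in the adult for Fgfr2.

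The adult POL2 was placed unevenly along both loci. The PD12 spans were cut into 5 equal parts and read in the direction of transcription, taking the strand (plus for Nkd1, minus for Fgfr2) from RefSeq. At Nkd1, the first 4 parts had 0% adult cover and the 3′ part had 43.2%, against 100% at PD12 in every part. Adult POL2 was thus unlisted over the first 73 kb of the span and ended 5.2 kb before its 3′ end. At Fgfr2, adult cover from 5′ to 3′ was 0%, 47.9%, 5.52%, 12.9% and 58.0%, against 96.3%, 100%, 96.3%, 78.8% and 96.3% at PD12. The first 30.8 kb of the Fgfr2 span had no adult domain, and the adult domain nearest the 3′ end came within 2 kb of it. In both genes the 5′ part had no adult cover and the 3′ part had more than any other. They differed in the part next to the 5′ one, where Fgfr2 had a 10.4 kb adult domain and Nkd1 had none. At Fgfr2 the 3′ part held 12.6 kb of adult cover, little more than that. At Nkd1 a single adult domain of 7.4 kb had to leave most parts empty. The parts divide the PD12 span and not the gene. The genes were chosen on POL2 cover and other stretches were not divided, so nothing is read from this placement.

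**Figure D2:**
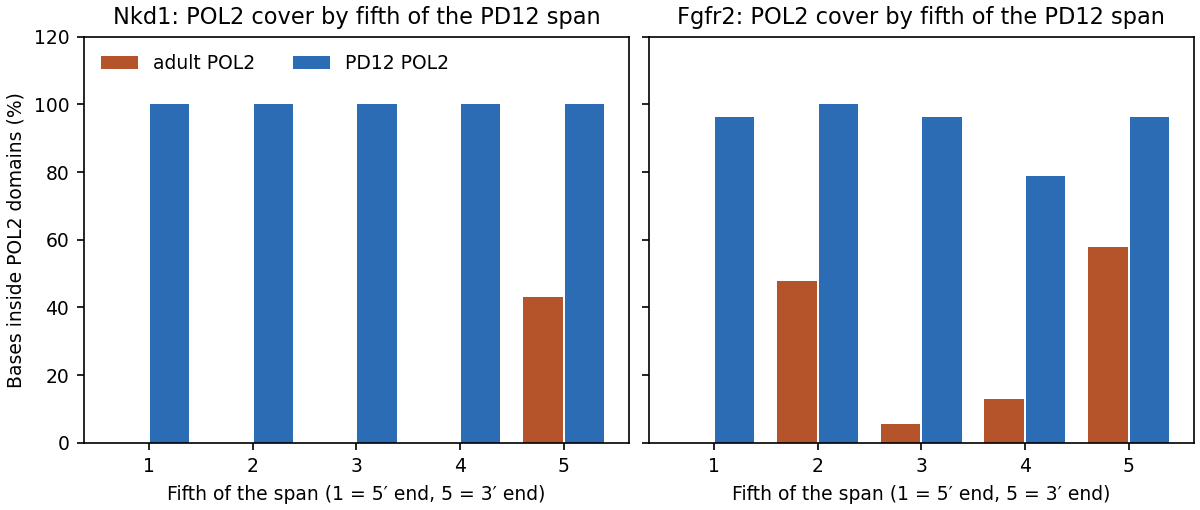
Percentage of bases inside POL2 domains in 5 equal parts of the PD12 POL2 span, ordered from the 5′ end (1) to the 3′ end (5), for Nkd1 (left) and Fgfr2 (right), with 1 library per bar and no error. Adult bars are at 0% in the 5′ part of both genes and reach 43.2% at Nkd1 and 58.0% at Fgfr2 in the 3′ part, while PD12 bars stay at 78.8% or above.

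For the background, POL2 domains of the adult and PD12 lists that lay 5 kb or less apart were merged into 11353 stretches, and each gene was a single stretch. Both stretches had a PD12 covered length at least 2 times the adult one, which was the case for 14.5% of all stretches. At a bar of 4 times, 11.6% of stretches passed, and Nkd1 did while Fgfr2, at 3.76 times, did not. Most of the 1642 stretches past 2 times were short ones that the adult list lacked, since 1227 had no adult POL2, and the median PD12 cover over the 1642 was 4.4 kb. Among the 108 stretches with at least 50 kb covered at PD12, 7.41% (8 stretches) passed 2 times, and the median ratio of adult to PD12 cover was 1.0 (interquartile range 0.857 to 1.08). Nkd1 and Fgfr2 had the lowest ratios of these 108, and the next lowest was 0.296. By kb listed at PD12 in excess of the adult, Nkd1 (78.2 kb) ranked 1 and Fgfr2 (74.6 kb) ranked 2, and the next stretch had 60.4 kb. These ranks are what the genes were chosen for.

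**Figure D3:**
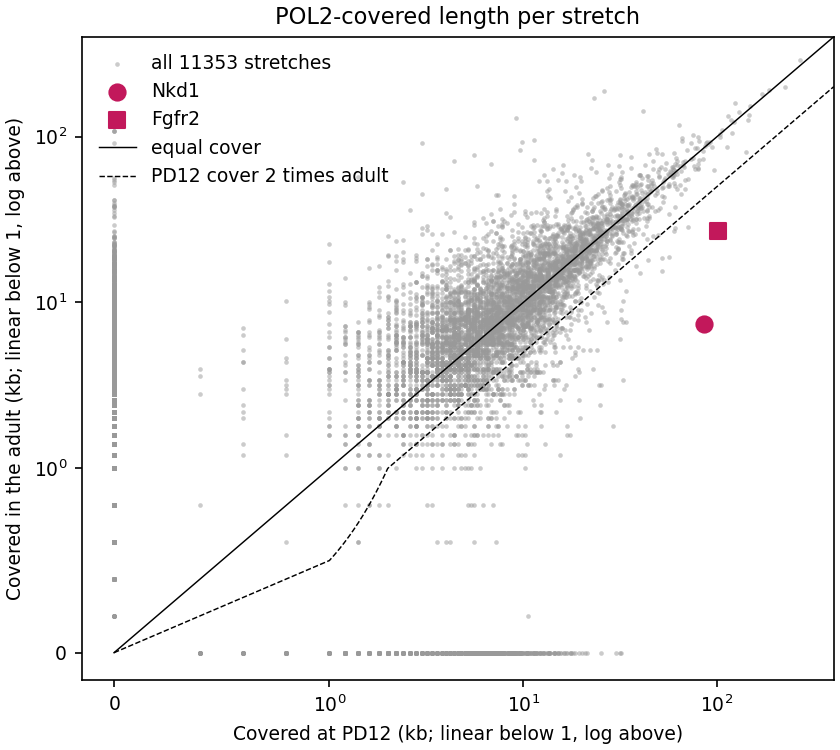
POL2-covered length of each of 11353 stretches at PD12 (x axis, kb) and in the adult (y axis, kb), both linear below 1 kb and logarithmic above, with Nkd1 as a circle and Fgfr2 as a square. The solid line marks equal cover and the dashed line a PD12 cover of 2 times the adult one. Nkd1 (7.4 kb adult, 85.6 kb PD12) and Fgfr2 (27 kb adult, 101.6 kb PD12) lie below the dashed line, away from most other long stretches, which follow the solid line.

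FOXA2 was listed at opposite stages at the 2 loci. The genes were chosen on POL2, but with earlier results of these data known. At Nkd1, the adult list held 0 intervals and the PD12 list held 2, at 91094308 to 91094645 (338 bp) and 91127878 to 91128179 (302 bp). At Fgfr2, the adult list held 3 intervals and the PD12 list held 0. An adult interval without a PD12 counterpart is the usual case, since 9787 of 10373 adult FOXA2 intervals (94.4%) overlapped none of the PD12 list. The adult intervals lay at 137374604 to 137375284 (681 bp), 137387898 to 137388689 (792 bp) and 137390196 to 137390976 (781 bp). The PD12 widths straddled the median of their own list, 318.5 bp, as did the adult ones around 685 bp. The adult FOXA2 list was 12.7 times as long as the PD12 one, so the adult absence at Nkd1 and the PD12 absence at Fgfr2 do not carry the same weight. A window wider by 50 kb on each side took in 1 adult interval at Nkd1, on its 3′ side. At Fgfr2 it raised the adult count from 3 to 4, also on the 3′ side, and still took in none of the PD12 list. Without replicates, the opposite pattern was not tested.

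The adult FOXA2 interval nearest to the Nkd1 intervals lay at 91171158 to 91171744, beyond the 3′ edge of the window, 76.5 and 43.0 kb away from them. Over the series, 227 of 814 PD12 FOXA2 intervals (27.9%) had no overlapping adult one, and for those the median distance to the nearest adult interval was 52.1 kb, which lies between the distances at Nkd1. At Fgfr2 the nearest PD12 FOXA2 interval was 354 kb from the closest of the 3 adult ones, also on the 3′ side. Of the 3, the pair nearest the 5′ end was separated by 1.51 kb, and the remaining one lay 12.6 kb further on. Their centres were 15.8, 18.1 and 31.5 kb from the 5′ end of the PD12 POL2 span, all within its first 29.0%. The Nkd1 centres were 50.9 and 84.4 kb from the 5′ end, at 59.4% and 98.6% of the span.

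All 5 FOXA2 intervals overlapped a PD12 POL2 domain by at least 1 bp, and 1 of them overlapped an adult domain. Adult POL2 filled 6.73% of the Nkd1 window and PD12 POL2 77.8%, and at Fgfr2 they filled 20.8% in the adult and 78.2% at PD12. Because the genes were chosen for that difference, the choice itself favours overlap with PD12 domains and nothing is read from the counts. Over the series, 19.4% of adult FOXA2 intervals overlapped an adult POL2 domain and 11.4% a PD12 one. Of PD12 FOXA2 intervals, 29.9% overlapped an adult domain and 20.3% a PD12 one. The interval in an adult domain was the Fgfr2 one at 137374604, which lay whole in both an adult and a PD12 domain and ended 0.315 kb short of the adult domain's 5′-side edge. The other 2 adult FOXA2 intervals of Fgfr2 were in a part of the gene where the adult list had no POL2, 12.3 and 14.6 kb from the nearest adult domain. At 137390196, 204 of the 781 bp overlapped a PD12 domain, and the centre fell in the 0.8 kb gap beside it. The Nkd1 intervals lay whole inside the 85.6 kb PD12 domain, the second of them 1.02 kb from its 3′ end, and 22.0 and 3.88 kb from the adult domain. FOXA2 and POL2 came from separate immunoprecipitations of whole tissue, so sharing a region does not place them in the same cells.

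Among all 9972 PD12 POL2 domains, 162 held a PD12 FOXA2 interval, 3 held 2 or more, and only the Nkd1 domain of those 3 held no adult FOXA2 interval. Of the 1642 stretches with at least 2 times more POL2 cover at PD12, 23 (1.4%) held a PD12 FOXA2 interval and 118 (7.19%) an adult one. The matching shares over all 11353 stretches are not given here, so neither share is read as high or low. Among the 1642, only the Nkd1 stretch held 2 or more PD12 intervals, and only the Fgfr2 stretch held 3 or more adult ones. The bars of 2 and 3 are the counts at these genes themselves, so being the only one past a bar supports nothing. Both stretches are also far longer than most, and a long stretch can hold more intervals by its length. The part of length in these counts was not tested.

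In the flanks that held POL2, the stage difference of the genes was not seen. In the 500 kb on both sides of the Nkd1 window, POL2 covered 88.4 kb in the adult and 60.6 kb at PD12, a ratio of 1.46. Beside the Fgfr2 window it covered 19.6 kb in the adult and 15.4 kb at PD12, a ratio of 1.27, all on the 5′ side. The 3′ side held no POL2 domain at either stage and could show no difference. The whole of chromosome 8 had a ratio of 1.26 and the whole of chromosome 7 one of 1.16. Nkd1 and Fgfr2 lay below their flanks, their chromosomes and the series by this ratio, which the choice of the genes fixed in advance. The flanks that held POL2 were on the adult side, as the series was. Of the flanking domains, 8 of 14 adult and 8 of 10 PD12 ones overlapped a domain of the other stage. The POL2 domain nearest to the Nkd1 window was 119 kb away in the adult list and 165 kb away in the PD12 list. Near Fgfr2, the adult list had none closer than 251 kb, and the PD12 list had 1 of 1.2 kb at a distance of 43.2 kb on the 5′ side. In the RefSeq gene order of GRCm38.p6, the coding genes next to Nkd1 are Brd7 and Snx20, followed by Nod2, Cyld and Sall1 on the 3′ side. Those next to Fgfr2 are Ate1 on the 5′ side and Wdr11 on the 3′ side. No interval was assigned to these neighbours.

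**Figure D4:**
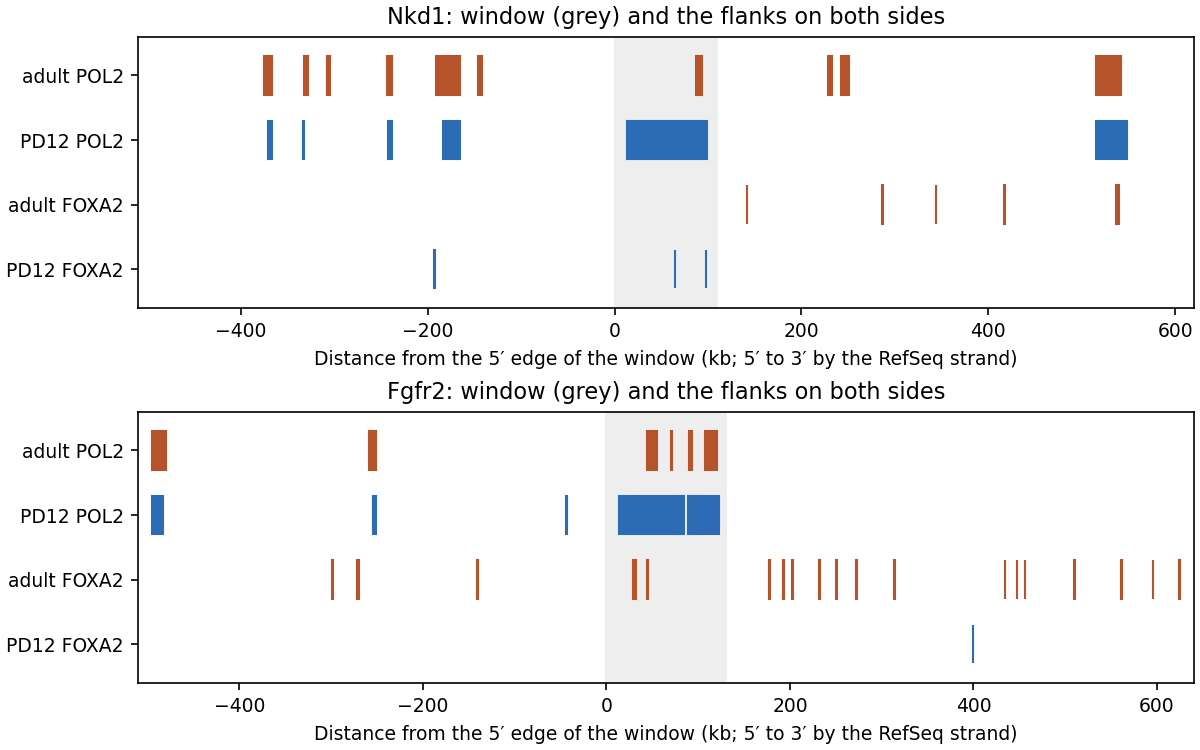
Intervals in the Nkd1 (top) and Fgfr2 (bottom) windows, shaded grey, and in the 500 kb on each side, with 1 row for each stage and antibody and the distance in kb from the 5′ edge of the window on the x axis; thin outlines make narrow intervals look wider than they are. Outside the windows, 8 of 14 adult and 8 of 10 PD12 POL2 domains overlap one of the other stage. On the 3′ side of Fgfr2, 14 narrow adult FOXA2 marks are spread out, and no POL2 bar is drawn there.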

How the data were processed

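ChIP-seq intervals of whole mouse uterus were analysed, 1 library for each of 2 antibodies at 2 stages. Reads were aligned with BWA, per the submitters' processing notes. Caller, threshold, handling of the input DNA and genome build were not given in the sources used here. The deposited tables hold the chromosome, start and end of each interval, per the file headers, with no score or read count. Depth and precision per library are therefore unknown.

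Widths count both ends. Covered length is the union of intervals cut at the window edges. Overlap means at least 1 bp. Stretches joined POL2 domains of both stages across gaps of up to 5 kb. The interval functions were tested on simulated lists. Strand, promoters and neighbours come from RefSeq tables of GRCm38.p6, in which both genes matched by symbol. Python 3.11.15, numpy 2.4.6, pandas 2.3.3 and matplotlib 3.10.9 were used.

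The members, windows and lists were chosen with earlier results of these data known. The rule for named genes was the 2 genes of the windows, plus neighbours by name. Lists of Wnt and fibroblast growth factor pathway genes were not used, because no annotation of the files' build was at hand. Alternatives were wider windows, whole intervals, scaling by list total, domains of 5 kb or more, centres in place of overlaps, another fold and other joining gaps.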

Additional observations from a re-analysis of the deposited data

How the results depend on the processing

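Over 17 alternatives, 9 gave the same value or a count within 1.5 times, 8 moved and 0 changed direction. Some of them could not have differed. No POL2 domain crossed a window edge, so counting whole intervals changed nothing at either gene. At Nkd1 both domains exceeded 5 kb, and no other POL2 domain lay within 50 kb of the window. Scaling could only lower the ratio, since the adult list was the longer one. The genes were chosen for the direction of the POL2 ratio, so its staying the same supports nothing. With each list scaled by its total, the adult to PD12 ratio was 0.0639 at Nkd1 and 0.197 at Fgfr2. At Fgfr2 it was 0.263 in a window wider by 50 kb on each side and 0.226 with only domains of 5 kb or more. The wider window gave 1 adult FOXA2 interval at Nkd1, where the main window had 0. At Fgfr2 it gave 4 adult FOXA2 intervals against 3, which was within 1.5 times. The share of stretches with more PD12 than adult cover was 11.6% at 4 times, 15.5% with gaps of up to 1 kb joined and 14.1% with gaps of up to 10 kb. No paired analysis was possible because there is 1 library for each antibody and stage. Leaving out a library, a stricter peak threshold and the pathway lists could not be run. Unknown depth limits each comparison of list against list, and an interval absent from the shorter PD12 FOXA2 list may be below its threshold.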

Other observations

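The 500 kb on the 3′ side of the Fgfr2 window held 14 adult FOXA2 intervals and 1 PD12 interval, yet no POL2 domain of either stage. The 14 lay between 136795376 and 137242827, with widths of 340 to 1007 bp (median 674.5 bp), and were spread out, with gaps of 8.34 to 120 kb. The nearest POL2 domain on that side was 1357 kb from the window in the adult list and 1433 kb at PD12. For scale, in 3721 fixed tiles of 500 kb that held an interval of any list, the median was 2 adult FOXA2 intervals, and 7 tiles (0.188%) held 14 or more. No POL2 domain was centred in 817 of these tiles, and the most adult FOXA2 intervals in such a tile was 10. The flank was placed by the window edge and not by the tile grid. A tile boundary fell inside it, so its 14 intervals were split between adjoining tiles. Its count and the tile counts are therefore not like for like. This flank was looked at after its values were seen, and the tiles are a description. On the 5′ side of Fgfr2, 3 adult FOXA2 intervals were listed over the same length.

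In the flanks of Nkd1 the FOXA2 intervals of the stages lay on different sides, but PD12 had only 1 interval there. The 5′ flank of 500 kb held 0 adult and 1 PD12 interval, and the 3′ flank held 6 adult and 0 PD12 intervals. POL2 in the 5′ flank covered 48.8 kb in the adult and 27.8 kb at PD12, and in the 3′ flank 39.6 kb in the adult and 32.8 kb at PD12. The next PD12 FOXA2 interval on the 3′ side of Nkd1 was 6088 kb from the window, in a list of only 814 intervals. These counts rest on 1 library each and were not tested.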
